A study of Mus musculus with 6 samples.

Results

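The SOCS family comprises the genes Socs1 to Socs7 and Cish, which encode suppressors of cytokine signaling. They were taken by gene name from the deposited table, which gave 8 of its 78298 genes. Earlier results of these data were known when the family was chosen. RNA sequencing was performed on RENCA cells, an established mouse renal adenocarcinoma line. Cells had been transduced with a lentivirus carrying the coding sequence of mouse Aqp1 (oe-AQP1, 3 samples) or with the corresponding empty vector (oe-NC, 3 samples). The transgene was driven by the ubiquitin C promoter. Both groups thus carried a viral backbone and a puromycin resistance cassette, both spent 14 days under puromycin (2 μg/mL), and no untransduced cells were analysed here. Samples are described as biological replicates, but the labels do not tell whether they came from separate transductions, so p-values measure the spread between these samples.

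A cytokine that binds its receptor activates Janus kinases (JAKs), which phosphorylate STAT transcription factors, and these enter the nucleus and switch on target genes. SOCS genes are among those targets, and their proteins act back on the receptor that induced them. Every SOCS protein has an SH2 domain, which binds phosphorylated tyrosines on receptors and kinases, and a SOCS box, which recruits an elongin-cullin ubiquitin ligase. SOCS1 and SOCS3 also carry a short region that blocks the JAK catalytic site directly. SOCS1 is best known as the brake on interferon signaling, SOCS3 on the interleukin-6 family, and CIS (the product of Cish) and SOCS2 on receptors that signal through STAT5, such as the growth hormone receptor. SOCS4 and SOCS5 act on the epidermal growth factor receptor, and SOCS6 and SOCS7 are linked mainly to insulin and receptor tyrosine kinase signaling.

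Because these genes are induced by STAT and interferon regulatory factors, the stretches of their promoters that match the binding motifs of those factors are shown first. The RefSeq promoter table (GRCm38.p6), with 250 bases before and 50 after each start, held 4 of the 8 genes (Socs1, Socs3, Socs4 and Cish), and each of these 300-base sequences matched its chromosome in GRCm39 exactly once. The motifs searched on both strands were TTCNNNGAA (GAS, the element bound by STAT dimers), the same ends with a spacer of 4 bases in place of 3 (wider GAS), GAAA followed after 2 bases by GAAA (the core of the interferon-stimulated response element, ISRE) and GGG followed after 2 bases by TTTCC (a core of the NF-κB element). Windows of 30 bases around the matches follow, 5′ to 3′ on the gene's strand, with matched letters in capitals.
Socs1: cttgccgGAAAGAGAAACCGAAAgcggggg
Cish: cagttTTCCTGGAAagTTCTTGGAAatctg
Socs3: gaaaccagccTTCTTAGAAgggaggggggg

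The Socs1 window (GRCm39 chr16:10603461-10603490, minus strand) held 2 ISRE cores, at -83 to -74 and -77 to -68 from the RefSeq start, which overlap each other. At least 1 ISRE core was present in 3.44% of the 32851 promoters in the table, and at least 2 were present in 0.225%. The Cish window (chr9:107173853-107173882, plus strand) held 2 GAS motifs, at 1 to 9 and 12 to 20 from the start. GAS was present in 8.30% of all promoters, and at least 2 copies in 0.457%. The Socs3 window (chr11:117860327-117860356, minus strand) held 1 GAS motif at -154 to -146. No match to any of the 4 motifs was found in the Socs4 promoter, and the wider GAS (6.95% of promoters) and the NF-κB core (1.63%) were found in none of the 4 genes. GENCODE M39 starts some transcripts farther upstream than RefSeq, so that the Socs1 and Cish windows lie in the 5′ UTR of the first exon of the canonical transcript there, and the Socs3 window in an exon of a minor transcript. These matches are letters in a reference sequence and were not tested for binding.

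The samples held between 18385714 and 21920899 expected counts, that is, estimated read counts that need not be whole numbers. The targeted gene, Aqp1, had counts of 7713, 8545 and 7838 in oe-AQP1 and of 41, 25 and 45 in oe-NC samples, which fits the labels. Of 10 renal epithelial markers, 7 were tested and 4 of these were lower in oe-AQP1 cells (Krt8, Krt18, Cdh16 and Lrp2), with 0 higher. Among all genes tested, 16.6% were lower and 16.0% higher. Their summed level was 804 to 837 CPM in oe-AQP1 and 989 to 1090 CPM in oe-NC samples, CPM being counts scaled to a common library size. Pax2, Pax8 and Cubn were detected as well, whereas Epcam and Umod were at 0 and Slc34a1 had at most 1 count. The part of these marker levels in the results was not tested. The summed level of the 10 leukocyte markers was 26.7 to 26.9 CPM in oe-AQP1 and 39.1 to 39.8 CPM in oe-NC samples. It came almost entirely from Csf1r, Cd14 and Lyz2, while the defining Adgre1 and C1qa were at 0 and Ptprc had at most 3 counts in any sample. The sums over 7 endothelial and fibroblast markers overlapped (58.2 to 60.1 and 53.1 to 66.9 CPM). Of the 4 of these that were tested, 1 was higher (Pdgfrb) and 1 lower (Col1a1). Of 3 leukocyte markers tested, 2 were lower (Csf1r and Lyz2) and 0 higher. Both stand beside the same 16.0% of all genes higher and 16.6% lower. One library stood apart. Comparing oe-NC sample 1 with the other oe-NC samples gave a chi-square of 9.54 and 11.1 per gene, against 1.71 to 2.04 for every other pair within a group, where sampling noise gives about 1. Results that rest on it are therefore also given without it. For the renal epithelial markers, leaving it out added Pax2 as higher and Cubn as lower. That gave 1 higher and 5 lower of the 7 tested, beside 19.4% and 20.7% of all genes.

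Groups were compared by limma-voom over the 15522 genes that passed the low-count filter, and all 8 SOCS family genes passed it. The FDR given is a Benjamini-Hochberg adjusted p over all of them, and a positive log2 fold change (log2FC) means a higher level in oe-AQP1 cells. Of the 8 genes, 2 were higher at an FDR under 0.05 (Socs1 and Socs2), where 16.0% of all genes tested were higher. None was lower, where 16.6% of all genes were. At an unadjusted p under 0.05, limma-voom gave 3 higher and 0 lower, where 21.2% and 21.6% of all genes were. By the same rule edgeR gave 3 and 0 (20.9% and 21.7% of all genes), and DESeq2 gave 2 and 1 (16.9% and 18.3%). Socs1 alone also exceeded a log2FC of 1, a rule that 4.39% of all genes passed upward. The median log2FC of the 8 genes was 0.10, beside 0.00 over all genes tested. Groups did not overlap for 3 genes (Socs1, Socs2 and Socs4), against 47.3% of all genes in either direction. Without oe-NC sample 1, the count of higher genes was 3 through the addition of Cish, while the share of all genes that were higher was 19.4% and the median of the 8 genes was 0.06.

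Socs1 lies on chromosome 16 of GRCm39 (ENSMUSG00000038037, 10600104 to 10603875, minus strand), with 2 exons in its canonical transcript. It had 230, 222 and 240 counts in oe-AQP1 samples 1 to 3 and 92, 48 and 61 counts in oe-NC samples 1 to 3. The lowest oe-AQP1 sample was thus more than double the highest oe-NC sample, and oe-NC sample 1 was the highest of its group. On the CPM scale, which divides by library size and its TMM factor, Socs1 rose from 3.39 ± 1.13 (SD, n = 3) in oe-NC to 11.1 ± 0.899 (SD, n = 3) in oe-AQP1 cells. This was a log2FC of 1.75 with a standard error of 0.18 (FDR = 5.1e-05, limma-voom), or a 3.36-fold difference with a 95% interval of 2.54 to 4.44. For Socs1 alone, the exact permutation p (two-sided) was 0.1, below which groups of 3 cannot go. Without oe-NC sample 1 the log2FC was 2.00 (FDR = 1.85e-08 by limma-voom). As RNA was taken from whole cultures, more cells expressing Socs1 and more Socs1 RNA per cell cannot be told apart.

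Cish and Socs2 belong to the same branch of the family and are classical STAT5 targets. Socs2 (ENSMUSG00000020027, chromosome 10, 95219523 to 95253929) had 1003, 1141 and 1118.52 counts in oe-AQP1 and 871, 790 and 918 counts in oe-NC samples. After scaling, the values were 50.7, 51.9 and 54.4 CPM against 44.4, 43.2 and 43.1 CPM, so the groups did not overlap although the difference was small. Socs2 rose by 0.26 on the log2 scale with a standard error of 0.05 (FDR = 0.00233, limma-voom), which is 1.20-fold with a 95% interval of 1.11 to 1.30. Its annotation as nonsense-mediated decay in the deposited table differs from GENCODE M39, which lists it as protein-coding. Cish (ENSMUSG00000032578, chromosome 9, 107173225 to 107179983) was the least counted member, with 73, 82 and 101 counts in oe-AQP1 and 78, 40 and 72 counts in oe-NC samples. Its groups overlapped, since oe-NC sample 1 (3.97 CPM) lay above oe-AQP1 samples 1 and 2 (3.69 and 3.73 CPM). The log2FC of Cish was 0.38 (95% interval -0.10 to 0.86, FDR = 0.206 by limma-voom). Without oe-NC sample 1 it was 0.55 (FDR = 0.0493), so its call depended on that library.

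Socs3, which has the GAS motif shown above, did not pass the test. Socs3 (ENSMUSG00000053113, chromosome 11, 117856905 to 117860898) had 1050, 1155 and 1014 counts in oe-AQP1 and 1398, 970 and 1149 counts in oe-NC samples. On the CPM scale the oe-AQP1 samples lay at 53.1, 52.5 and 49.3, and the oe-NC samples at 71.2, 53.1 and 53.9. Only oe-NC sample 1 stood clearly above the rest. The log2FC was -0.19 (95% interval -0.41 to 0.03, FDR = 0.181 by limma-voom), and without oe-NC sample 1 it was -0.05 (FDR = 0.392). The interval thus leaves out an increase of Socs3 beyond 1.02-fold in the fit with all samples. That fit includes oe-NC sample 1, and no interval without it is given here.

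**Figure D1:**
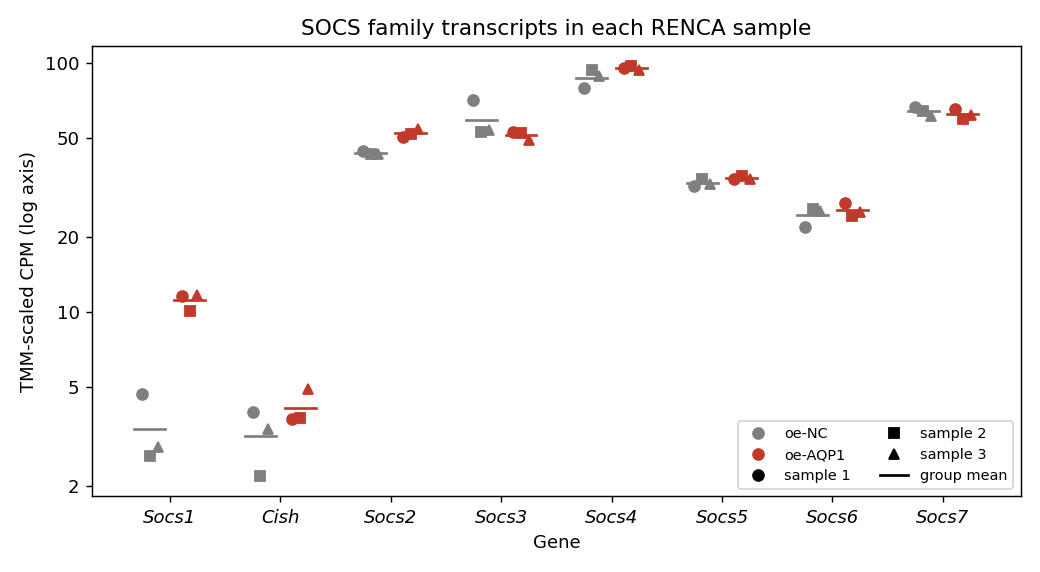
Level of each SOCS family gene in each sample, as TMM-scaled CPM on a log axis; grey symbols are oe-NC and red symbols oe-AQP1 samples, shapes give the sample number and lines the group means. Socs1 shows a wide gap between 4.69 CPM in the highest oe-NC sample and 10.1 CPM in the lowest oe-AQP1 sample, whereas oe-NC sample 1 lies apart from its group for Socs1, Socs3, Socs4 and Socs6.

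The members with long N-terminal parts, Socs4 to Socs7, differed little between the groups. Socs4 (ENSMUSG00000048379, chromosome 14, 47514368 to 47533559) had 1903, 2138 and 1938 counts in oe-AQP1 and 1561, 1713 and 1888 counts in oe-NC samples. On the CPM scale the oe-AQP1 samples (94.3 to 97.2) lay just above the oe-NC samples (79.5 to 93.7). Its log2FC of 0.14 did not pass (95% interval 0.01 to 0.27, FDR = 0.0922 by limma-voom). Without oe-NC sample 1 it was 0.08 (FDR = 0.0927 by limma-voom), and without oe-NC sample 2 it was 0.19 (FDR = 0.0402). Socs5 (ENSMUSG00000037104, chromosome 17, 87414674 to 87445267) had 34.2 to 35.2 CPM in oe-AQP1 and 32.0 to 34.4 CPM in oe-NC samples, with a log2FC of 0.07 (95% interval -0.05 to 0.19). Socs6 (ENSMUSG00000056153, chromosome 18, 88683348 to 88945635) had 24.3 to 27.4 and 22 to 26 CPM, with a log2FC of 0.06 (95% interval -0.11 to 0.24). That sign turned without oe-NC sample 1 (log2FC = -0.01). Socs7 (ENSMUSG00000038485, chromosome 11, 97253032 to 97289368) had 59.6 to 65.4 and 61.3 to 66.9 CPM, with a log2FC of -0.04 (95% interval -0.16 to 0.08). Values of both groups overlapped for Socs5, Socs6 and Socs7, and the intervals of all 4 genes lie within 0.27 of 0 on the log2 scale.

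**Figure D2:**
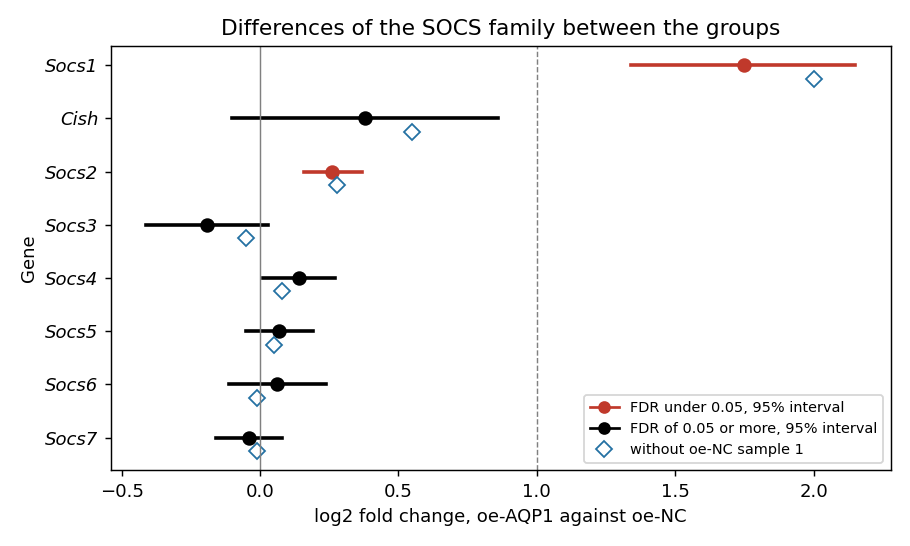
log2FC of each SOCS family gene between oe-AQP1 and oe-NC (circles) with its 95% interval (bars); red marks an FDR under 0.05, the dashed line a log2FC of 1, and open diamonds the value without oe-NC sample 1. Socs1 at 1.75 is the one gene whose interval (1.34 to 2.15) lies above the dashed line, and the intervals of Cish, Socs3, Socs5, Socs6 and Socs7 include 0.

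Whether the Socs1 difference exceeded that of its relatives was examined within each sample, as the log2 ratio of Socs1 to each other member. For all 7 ratios, the lowest oe-AQP1 value lay above the highest oe-NC value. Relative to Socs3, the ratio ranged from -2.37 to -2.07 in oe-AQP1 and from -4.29 to -3.90 in oe-NC samples. The group difference of the ratio was largest against Socs3 (1.92) and smallest against Cish (1.34). Each of the 7 comparisons gave an exact two-sided permutation p of 0.1, the smallest possible here, and 0.1 after Benjamini-Hochberg adjustment over the 7. All 7 ratios share the same Socs1 values, and Socs1 was the member with the largest difference. They therefore largely restate that difference and are not 7 separate tests.

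Levels of different genes can be set side by side only per length, here as CPM per kilobase of all annotated exons. In oe-NC cells the order was Socs3 (16.7 ± 2.88, SD, n = 3), Socs4 (12.7 ± 1.04), Socs7 (8.20 ± 0.36), Socs5 (4.45 ± 0.166), Socs2 (2.85 ± 0.0468), Socs6 (2.06 ± 0.185), Socs1 (1.00 ± 0.333) and Cish (0.495 ± 0.142). No neighbours in that order overlapped between samples. Socs3 was higher per kilobase than 83.7% of all genes tested in oe-NC cells, and Cish than 18%. Socs1 was higher than 27.4% of genes in oe-NC and than 46.0% in oe-AQP1 cells. In oe-AQP1 cells Socs1 reached 3.29 ± 0.266 per kilobase (SD, n = 3), past Socs6 (2.16 ± 0.131), and its samples overlapped those of Socs2 (2.98 to 3.45 against 3.32 to 3.57). Socs3 and Socs4 also overlapped there (13.9 to 14.9 against 13.7 to 14.1).

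The place of Socs2 in this order depended on the length used. Its annotated exons cover 15258 bases, but its canonical transcript has 2540. Per kilobase of canonical transcript, Socs2 ranked second in oe-NC (17.1, after Socs3 at 22.3) and first in oe-AQP1 cells (20.6, before Socs3 at 19.4). On that scale Socs1 (3.42) stayed below Socs6 (4.21) in oe-AQP1 cells. Which transcripts of Socs2 were present cannot be read from counts per gene.

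Socs1 made up 1.63 to 2.71% of the summed level of the 8 genes in oe-NC and 5.94 to 6.90% in oe-AQP1 samples, per kilobase of all exons. With canonical lengths, its mean share was 1.40% in oe-NC and 4.36% in oe-AQP1 cells. The share of Socs3 was 31.4 to 39.1% in oe-NC and 27.7 to 29.4% in oe-AQP1 samples. The summed level of the family was 48.4 ± 2.43 (SD, n = 3) in oe-NC and 50.6 ± 0.8 (SD, n = 3) in oe-AQP1 cells per kilobase. The sums overlapped through oe-NC sample 1 alone, which lay at 51.2 beside 47.5 and 46.6 in the other oe-NC samples and 50 in the lowest oe-AQP1 sample. The shares of Socs1 and Socs3 did not overlap.

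**Figure D3:**
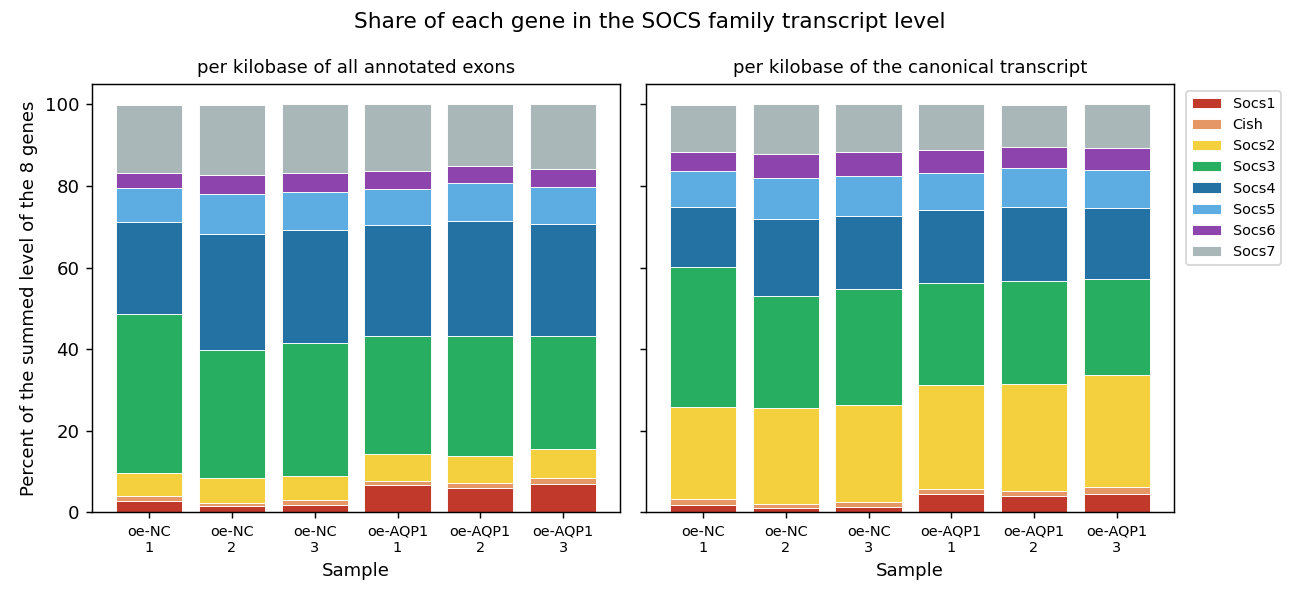
Percent of the summed length-scaled level of the 8 SOCS family genes held by each gene in each sample, per kilobase of all annotated exons (left) or of the canonical transcript (right). Socs1, at the base of each bar, takes 5.94 to 6.90% in oe-AQP1 against 1.63 to 2.71% in oe-NC samples on the left, and the share of Socs2 differs strongly between the panels.

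The genes around the SOCS family were examined as lists fixed by their role. Among the ligands, 6 of 11 tested (of 20 listed) were higher and 1 was lower at an FDR under 0.05. Among all genes tested, 16.0% were higher and 16.6% lower. Ifnb1, Ifna4, Il6 and Il15 had at most 6 counts in any oe-NC sample and passed the low-count filter only through oe-AQP1 samples. Genes selected in this way can hardly be called other than higher, so the count is no test of the list. Ifnb1, the gene of interferon beta, had 264, 288 and 277 counts in oe-AQP1 and 3, 6 and 5 in oe-NC samples (log2FC = 5.72, standard error 0.30). Ifna4 had 34, 23 and 23 counts against 0 in every oe-NC sample, and belongs to a family of near-identical genes among which reads can be split. Il6 had 43, 43 and 41 counts against 1, 1 and 0, and Il15 had 33, 24 and 23 against 4, 2 and 1. Csf2 (log2FC = 1.29) passed the fold threshold as well. Il6 encodes interleukin-6, whose receptor SOCS3 acts on.

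Of the 16 receptor chains tested (of 20), 3 were higher and 6 lower, beside 16.0% and 16.6% of all genes. By edgeR 3 were higher and 7 lower, beside 2488 and 2594 of the 15522 genes tested. By DESeq2 3 were higher and 5 lower, beside 1974 and 2173 of those genes. Ghr, the growth hormone receptor and the best known target of SOCS2, rose from 4.04 ± 0.547 to 12.6 ± 1.05 CPM (SD, n = 3). This corresponds to a log2FC of 1.64 with a standard error of 0.13 (FDR = 7.37e-06, limma-voom). Lifr, which encodes the leukemia inhibitory factor receptor and is a target of SOCS3, fell by 1.14 on the log2 scale (FDR = 8.04e-06). Epor, the erythropoietin receptor, which CIS binds, fell by 0.49 (FDR = 0.00105).

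Of the 4 Janus kinases, Jak1 was lower by a log2FC of -0.11 (FDR = 0.0457 by limma-voom), a call that edgeR and DESeq2 did not make, and the others did not pass. Among STAT genes, Stat2 was higher (log2FC = 1.97, standard error 0.04) and Stat6 was lower (log2FC = -0.21). Calls in both lists stand beside 16.0% of all genes higher and 16.6% lower by limma-voom. Stat3, Stat5a and Stat5b, named here after their values had been seen, had log2FC values of 0.00, -0.06 and 0.07 and did not pass, although Stat5b passed without oe-NC sample 1 (log2FC = 0.13, FDR = 0.00382 by limma-voom).

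Target genes of STAT3 and STAT5 moved in both directions, as did all genes tested, of which 16.0% were higher and 16.6% lower. Of 9 STAT3 target genes tested, 3 were higher and 2 lower, with a median log2FC of 0.07. Without oe-NC sample 1, 5 were higher and 2 lower, beside 19.4% and 20.7% of all genes, with a median of 0.12. Fos (log2FC = 0.54) and Junb (0.44) rose, and Lcn2 fell by 0.73. Of 8 STAT5 target genes tested, 1 was higher and 4 lower, with a median of -0.28. Id1 fell by 1.17 and Bcl2l1 by 0.44, while Gadd45g rose by 0.57. Igf1, at 4 to 17 counts per sample, had a log2FC of -1.16 (FDR = 0.0479 by limma-voom). Neither edgeR (FDR = 0.0583) nor DESeq2 (FDR = 0.164) made that call. This left 3 lower genes by each, beside 2594 and 2173 of the 15522 genes tested. Many genes of these lists answer to more than one STAT factor, so a list is no readout of 1 factor.

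**Figure D4:**
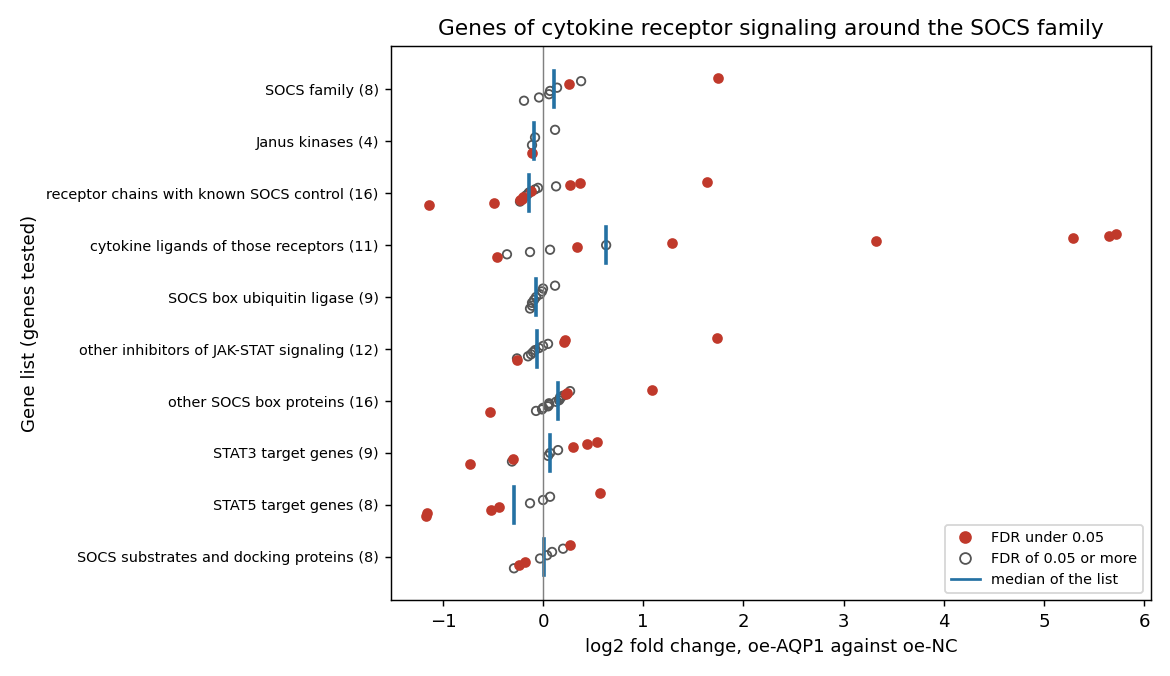
log2FC between oe-AQP1 and oe-NC of every tested gene in the SOCS family and in lists of genes around it, with the number tested in parentheses; filled red circles passed an FDR of 0.05, open circles did not, and blue bars mark the list medians. The medians of the Janus kinases (-0.09), the SOCS box ligase (-0.07) and the STAT3 target genes (0.07) lie near 0, and that of the cytokine ligands at 0.63. The ligands include genes that passed the low-count filter only through oe-AQP1 samples, which raises their median.

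The machinery that SOCS proteins need was also measured. Of 9 subunits and enzymes of the SOCS box ubiquitin ligases, 0 passed an FDR of 0.05 in either direction by limma-voom, edgeR or DESeq2. By limma-voom, 16.0% of all genes were higher and 16.6% lower. At an unadjusted p under 0.05 limma-voom gave 2 lower, edgeR 1 and DESeq2 0, where 21.6%, 21.7% and 18.3% of all genes were lower. Cul5, the scaffold used by most SOCS proteins, had a log2FC of -0.13 (FDR = 0.0622 by limma-voom). This result rested on oe-NC sample 1, since 7 of the 9 were lower without it (median log2FC = -0.12), where 20.7% of all genes were lower. Of 16 other SOCS box proteins tested, 3 were higher (Asb13, Wsb1 and Fem1b) and 1 was lower, beside 16.0% and 16.6% of all genes. Without oe-NC sample 1, 6 were higher, beside 19.4% of all genes. Asb13, an ankyrin repeat protein with a SOCS box, rose by a log2FC of 1.09 (FDR = 5.72e-07 by limma-voom).

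Inhibitors of JAK-STAT signaling outside the family gave 3 higher and 1 lower of 12 tested, with a median log2FC of -0.06. Among all genes, 16.0% were higher and 16.6% lower. Without oe-NC sample 1 there were 4 higher and 2 lower, beside 19.4% and 20.7% of all genes. DESeq2 with all samples gave 3 and 0, beside 1974 and 2173 of the 15522 genes tested. Usp18, which removes ISG15 from proteins and also blocks the interferon receptor at its IFNAR2 chain, rose from 137 ± 2.8 to 459 ± 1.25 CPM (SD, n = 3), which is 1.74 on the log2 scale (FDR = 1.05e-10, limma-voom). Pias1, a SUMO ligase that restrains STAT factors, and Ptpn2, a phosphatase of JAK1, rose by 0.21 and 0.22. Of 8 SOCS substrates and docking proteins tested, 1 was higher (Traf6, log2FC = 0.27) and 2 were lower (Irak1 and Irak4, -0.24 and -0.18). These calls stand beside the same 16.0% and 16.6% of all genes. DESeq2 did not call Irak4, and 2 of the 8 were higher without oe-NC sample 1, beside 19.4% of all genes.

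For the members that passed, the genes with the most similar profiles were sought over the 6 samples, by the root mean square distance between centred log2 CPM values among genes with a mean of at least 50 counts. Nearest to Socs1 were Asap3 (distance 0.152, log2FC = 1.72), C4a (0.159, log2FC = 1.75) and Plekha4 (0.163, log2FC = 1.87). C4a has a near-identical copy, C4b, with which it can share reads. Among those nearest to Socs2 were Lig4 (0.0161, log2FC = 0.27) and Tmem50a (0.0208, log2FC = 0.24). All 6 samples of a pair share the same 2 groups, so these distances describe mainly differences of like size.

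Reads of overlapping genes can enter the counts, as the sources used here do not state whether strand was used in counting. Opposite-strand long noncoding RNAs overlap exons of Socs1, Socs2, Socs3, Socs5, Socs6 and Cish in GENCODE M39. None of them exceeded 8.23 counts in any sample, against at least 40 counts for every SOCS family gene. Of the 8 genes, Socs2 in 1 sample had an expected count that was not whole.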

How the data were processed

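TruSeq libraries from total RNA of 6 RENCA samples were sequenced by a service company. The authors deposited expected counts per gene, not scaled between samples. The methods name GRCm39 as the reference, whereas the submitters' processing notes name GRCm38, mm10, fastp, HISAT2, featureCounts and Subread without versions, and the step that gave fractional counts is not given in the sources used here. The authors' 2 columns of group means were not used. Positions and lengths are from GENCODE M39 on GRCm39, which held 78168 of the 78298 genes.

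Expected counts were rounded and filtered with filterByExpr, and groups were compared over 15522 genes by limma-voom with TMM factors (0.993 to 1.006), following the methods of the study, with Benjamini-Hochberg adjustment (limma 3.58.1, edgeR 4.0.16, R 4.3.3). Also tried were DESeq2 1.42.0, the quasi-likelihood test of edgeR, sample quality weights, 2 other scalings, 2 other filters, unrounded counts, a replicate block and leaving out each sample. The fits were tested on simulated data. All 8 members are named; from each list, genes past an FDR of 0.05 and an absolute log2FC of 1 are named, with up to 3 of the lowest FDR. Members and lists were chosen with earlier results of these data known. Protein sequences were not used here, and some listed genes are not reported here.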

Additional observations from a re-analysis of the deposited data

How the results depend on the processing

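The calls of Socs1 and Socs2 held under all 15 alternatives, with a log2FC from 1.60 to 2.00 for Socs1 and from 0.24 to 0.29 for Socs2. Between 2 and 3 members passed in each. When single samples were left out, the log2FC ranged from 0.15 to 0.55 for Cish, from 0.08 to 0.19 for Socs4 and from -0.01 to 0.10 for Socs6. The value of -0.01, without oe-NC sample 1, reversed the sign of Socs6. Cish passed without that sample and with sample quality weights (log2FC = 0.54, FDR = 0.0408 by limma-voom), and Socs4 passed without oe-NC sample 2; the causes were not tested. At least 10 counts in every sample lowered the number of genes past both thresholds from 812 of 15522 tested to 482 of 14006. That number was 1136 of 34240 with no low-count filter. With canonical transcript lengths, chosen after seeing the data, the summed family level was 73.7 in oe-NC and 78.4 in oe-AQP1 cells, because the lengths were shorter. Samples of the same number in both groups hardly deviated together (r = 0.0328, 0.0571 and 0.084 over 10085 genes), though each correlated best with its own number. The main fit did not take the numbers as pairs, and these values do not settle whether the samples were paired. With the replicate block, 4825 genes passed the FDR in place of 5050, and the log2FC of Socs1 was 1.72 and that of Socs2 0.27. Depth limits Cish most, with 40 to 101 counts per sample.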
